A study of Mus musculus with 2 samples.

Results

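The genes described here are 6 genes for the assembly of iron-sulfur clusters in mitochondria: Iscu, Nfs1, Hscb, Glrx5, Isca1 and Isca2. They were given as a list of names, drawn up with earlier results of these data known, out of 20576 protein-coding genes that could be placed with a strand. Histone H3 trimethylated at lysine 4 (H3K4me3), a mark of active and poised promoters, was mapped by ChIP-seq in MEL cells. These are an immortalized mouse erythroleukaemia line that serves as a model of red cell precursors. The single group held 2 biological replicates, both treated with 2% dimethyl sulfoxide (DMSO), a textbook inducer of MEL maturation, for 5 days. Untreated cells were not analysed here, so every value below belongs to the treated state, and no change with treatment was tested.

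Iron-sulfur clusters are small groups of iron and sulfur atoms that enzymes carry for electron transfer and catalysis. Nfs1 is the cysteine desulfurase that supplies the sulfur, and Iscu is the scaffold on which a new cluster is built. The co-chaperone Hscb, with the chaperone Hspa9, helps the cluster leave the scaffold. Glrx5, a glutaredoxin, takes it up and passes it on, and the A-type carriers Isca1 and Isca2 act in the later steps that serve enzymes such as aconitase and lipoate synthase. In red cell precursors the pathway is known for its tie to heme. Ferrochelatase (Fech), the last enzyme of heme synthesis, carries a cluster, and the iron sensor Aco1 changes function when it loses its own.

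The promoter sequences are shown first, because the peaks below are placed against them. A RefSeq promoter table of the build GRCm38.p6 (mm10) matched 4 of the 6 genes, namely Nfs1, Glrx5, Isca1 and Isca2, and sequence was not analysed here for Iscu and Hscb. Printed below, 5′ to 3′ on the strand of the gene, is the stretch just before the start of the gene in the gene table. That of Isca2 is the 117 bases between the starts of Isca2 and Npc2 (chr12:84773113-84773229, plus strand). That of Glrx5 is the 250 bases before its start (chr12:105032368-105032617, plus strand). That of Isca1 is the 176 bases between its start and that of the long noncoding RNA gene Etohd2 (chr13:59769790-59769965, minus strand). The start of Nfs1 lies inside Romo1, so it has no such stretch. Capitals mark matches on either strand to 8 short motifs searched: the GC box GGGCGG, the CCAAT box, the TATA box TATAAA, the GATA motif AGATAA, the E-box CACGTG, the ETS motif CCGGAAGT, the NRF1 core GCATGCGC and the YY1 motif AAGATGGCG.
Isca2: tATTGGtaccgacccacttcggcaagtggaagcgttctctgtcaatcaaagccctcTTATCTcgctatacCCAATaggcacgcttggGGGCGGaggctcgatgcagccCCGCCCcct
Glrx5: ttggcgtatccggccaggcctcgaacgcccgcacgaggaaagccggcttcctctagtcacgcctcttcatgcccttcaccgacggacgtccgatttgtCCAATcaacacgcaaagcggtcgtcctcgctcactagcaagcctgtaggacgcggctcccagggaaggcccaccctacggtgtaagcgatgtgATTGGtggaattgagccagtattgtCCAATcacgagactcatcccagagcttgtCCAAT
Isca1: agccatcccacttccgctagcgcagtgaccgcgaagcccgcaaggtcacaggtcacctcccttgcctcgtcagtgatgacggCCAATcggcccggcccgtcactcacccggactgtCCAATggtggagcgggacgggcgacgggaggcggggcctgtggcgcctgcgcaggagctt

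The letters CCAAT, the site read by the factor NF-Y, occurred in the 300-base windows (250 bases before the start in the promoter table to 50 after) of Isca2, Glrx5 and Isca1, with 4 matches before the start of Glrx5. The promoter table sets this start at 84773270 for Isca2 and 156144186 for Nfs1, other than the gene table used for the peaks, and at the same base for Glrx5 and Isca1. Of all 32851 windows in the table, 37.4% held the letters CCAAT. The GATA letters occurred in the window of Isca2 alone among the 4 genes, against 11.2% of all windows, and the GC box likewise in that of Isca2 alone, against 35.7%. ETS letters occurred in the windows of Nfs1 and Isca1 (3.89% of all windows) and YY1 letters in that of Isca2 (1.40%). No window of the 4 genes held TATAAA (13.6% of all), the E-box (7.15%) or the NRF1 core (2.71%). A match describes the letters and is not a measured binding site. All 4 windows were rich in CpG, the dinucleotide of unmethylated promoter islands, with 35 in Nfs1, 27 in Isca1, 24 in Glrx5 and 22 in Isca2, against a median of 7 over all windows.

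As for the series as a whole, replicate 1 held 48026 peaks on chromosomes 1 to 19, X and Y and replicate 2 held 46950. The files give no read counts, so sequencing depth is unknown. Of 8 erythroid marker genes, 7 carried a peak at the 5′ end in both replicates, highest at Klf1 (20.7 and 21.3) and lowest at Slc4a1 (3.97 and 4.51), with the widest domain at Tal1 (8306 ± 63.6 bp). The exception was Gata1, whose strongest peaks, at 21.1 and 15.0, lay inside the gene. None of 4 granulocyte and macrophage (Adgre1, Cd14, Mpo, Csf1r), 3 B cell and 3 T cell markers (Cd3d, Cd3e, Cd4) was marked at the 5′ end in both replicates. Elsewhere over these genes or the 1000 bp beside them, Cd4 had peaks of up to 10.3 and 16.9, Cd79a of up to 4.95 and 16.6, and Cd3d of 9.05 and 9.82. A peak at a promoter does not measure transcription.

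All 6 genes carried H3K4me3 at their 5′ ends in both replicates. A gene counts as marked when each replicate has at least 1 peak that overlaps the 1000 bp on either side of its 5′ end. Of all 20576 genes, 9968 were marked by this rule, or 48.4%. Each peak has a signal value given by the authors on a scale they do not state, called the enrichment value here. The level of a gene is that of its strongest peak at the 5′ end, per replicate. Peaks less than or exactly 1000 bp apart were merged, and the broadest merged stretch at the 5′ end is the domain. Means are given with SD over the 2 replicates.

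**Figure D1:**
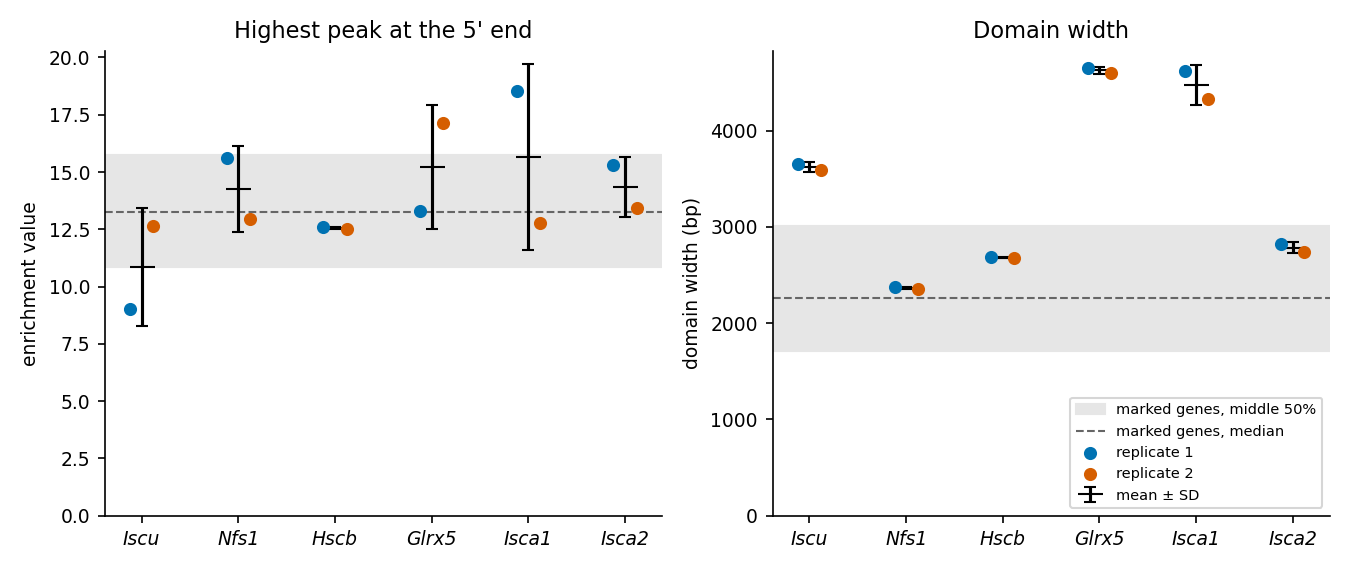
Left, enrichment value of the highest peak at the 5′ end of each gene. Right, width in bp of the H3K4me3 domain. Points are replicates, black marks are the mean ± SD of 2 replicates, and the grey band and dashed line are the middle 50% and the median of 9968 marked genes. The values lie within or near the grey band, whereas the domains of Iscu, Glrx5 and Isca1 lie above it in both replicates.

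Nfs1, the desulfurase (chromosome 2, 156123637 to 156144202, minus strand), had an enrichment value of 15.6 in replicate 1 and 12.9 in replicate 2. Its mean of 14.3 ± 1.88 was higher than that of 61.4% of marked genes. It was the one member with a single unbroken peak across its start, from 156143089 to 156145462 in replicate 1 and from 156143104 to the same end in replicate 2. A single peak at the 5′ end in both replicates was found at 21.4% of marked genes. Its domain, at 2374 and 2359 bp, was the narrowest of the 6 with gaps of up to 1000 bp joined, and close to the median of marked genes, 2258 bp. With no gap joined it had the widest mean of the 6, although the widest peak of Glrx5 was wider in replicate 1, at 2405 bp. In the pooled set the peaks of Isca2 (2808 bp) and Glrx5 (2517 bp) were wider than that of Nfs1 (2380 bp).

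Iscu, the scaffold (chromosome 5, 113772418 to 113778288, plus strand), had the lowest mean of the 6 genes, with 9.01 in replicate 1, the lowest there, and 12.7 in replicate 2, where Hscb was lower. The mean of 10.8 ± 2.57 was above only 24.9% of marked genes, and replicate 2 was higher by 1.40-fold. Its domain was nonetheless wide, at 3659 and 3588 bp, wider than that of 86.0% of marked genes. The domain was a chain of moderate peaks. In replicate 2 these had values of 12.6, 12.7, 10.1 and 5.74 in the direction of the gene, and in replicate 1 values of 4.82, 9.01, 8.35, 7.79 and 5.32. In both replicates the highest peak had its summit before the start of Iscu, at -857 bp in replicate 1 and -333 bp in replicate 2. These were different peaks of the chain.

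Hscb, the co-chaperone (chromosome 5, 110829070 to 110839793, minus strand), had the closest replicates, at 12.6 and 12.5, with a mean of 12.6 ± 0.0502 that was above 42.3% of marked genes. Its domain measured 2687 and 2677 bp. A peak on each side of the start made up the domain. The downstream one ran from 5 to 1361 bp after the start in replicate 1 and from 15 bp before it to 1318 bp after it in replicate 2. A separate peak lay inside the gene, 2936 to 3531 bp downstream in replicate 1 (7.78) and 3001 to 3564 bp downstream in replicate 2 (6.88). A weaker one followed it, at 4.05 and 2.92.

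Glrx5, the transfer glutaredoxin (chromosome 12, 105032618 to 105040911, plus strand), had 13.3 in replicate 1 and 17.1 in replicate 2, a mean of 15.2 ± 2.70 above 70.8% of marked genes. It had the widest domain of the 6, at 4651 and 4603 bp, wider than that of 94.1% of marked genes. This width rests on joined peaks: its widest single peak averaged 2164 bp, and with gaps of up to 3000 bp joined the domain measured 9705 bp. Its start itself was bare. No peak of either replicate covered any of the 250 bases before it, which are the bases printed above. The same was true of 9.32% of marked genes. The uncovered stretch measured 647 bp in replicate 1 and 482 bp in replicate 2. Near the other end of the gene, from 5949 to 7473 bp downstream in replicate 1 and from 5851 to 7518 bp in replicate 2, lay low peaks of at most 4.57 and 3.49.

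The A-type carriers differed in form. Isca1 (chromosome 13, 59755415 to 59769789, minus strand) had the highest mean of the 6 genes, 15.7 ± 4.07, above 74.4% of marked genes. The replicates were far apart, at 18.5 and 12.8, a difference of 1.45-fold. Its domain measured 4622 and 4330 bp, wider than that of 93.1% of marked genes. Isca2 (chromosome 12, 84773230 to 84775089, plus strand) had 15.3 and 13.4, a mean of 14.4 ± 1.32 above 62.4% of marked genes. Its domain of 2825 and 2744 bp reached from -1299 to 1525 bp of the start in replicate 1, which covers most of this short gene.

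Set in order by mean value, the genes were Isca1, Glrx5, Isca2, Nfs1, Hscb and Iscu. The replicates of neighbours in this order overlapped in every case but that of Nfs1 and Hscb, so the order of the values is mostly within the spread of the replicates. The order by width was Glrx5, Isca1, Iscu, Isca2, Hscb and Nfs1, and there only Glrx5 and Isca1 overlapped. With no gap joined the order by mean width became Nfs1, Glrx5, Isca1, Isca2, Hscb and Iscu. The median of the 6 means was 14.3, against 13.2 over all marked genes (middle 50% from 10.8 to 15.7). The median width was 3204 bp against 2258 bp (1707 to 3012 bp). Of the 6 genes, 4 lay above the median value of marked genes. With gaps of up to 1000 bp joined, 6 lay above the median width. Widths of all marked genes with no gap joined were not analysed here.

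The replicates agreed on width more closely than on value. Over the 9968 marked genes, which are not independent replicates, the correlation between replicates was 0.918 for log2 width and 0.634 for log2 value. The log2 ratio of replicate 1 to replicate 2 in value centred on a median of -0.16 over marked genes, with an SD of 0.47. Among the 6 genes it ran from -0.49 in Iscu to 0.54 in Isca1, and Isca1 alone lay more than 1 SD from the mean of marked genes. Of the 6, 4 were higher in replicate 1 and 2 in replicate 2.

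**Figure D2:**
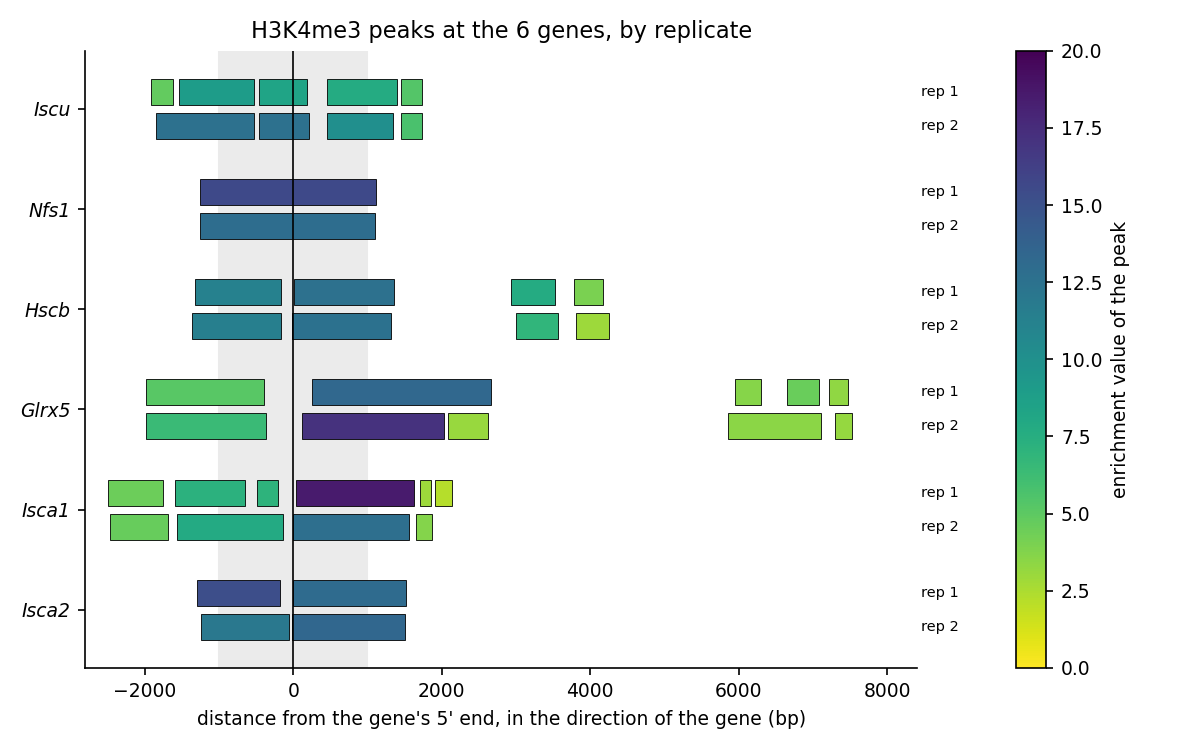
Peaks at the 6 genes by replicate, drawn to scale against distance from the gene's 5′ end in the direction of the gene (bp), with colour for the enrichment value of the peak and grey for the 1000 bp on either side. Nfs1 has a single peak across its start, Glrx5 has none over it in either replicate, and Hscb and Glrx5 have further peaks inside the gene.

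Peaks on the sides of the start were compared next. The base at the 5′ end lay in a peak of both replicates at Iscu, Nfs1 and Isca2, in a peak of replicate 2 only at Hscb and Isca1, and in no peak at Glrx5. Over marked genes these shares were 42.4%, 21.8% for 1 replicate of either number, and 35.8%. At Isca1 replicate 1 left 244 bp around the start without a peak, and in replicate 2 the peak began at the start itself. Of the 176 bases of Isca1 printed above, peaks covered 0 in replicate 1 and 38 in replicate 2. Of the 117 bases of Isca2 they covered 8 and 79. At Hscb, 83 and 103 of the 250 bases before the start were covered, against a median of 166 and 202.5 over marked genes in replicates 1 and 2. Iscu and Nfs1 had all 250 covered in both.

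Most of these promoters face another gene. Iscu, Nfs1, Hscb and Isca2, or 4 of the 6, have a protein-coding 5′ end on the other strand within 1000 bp, against 10.8% of all genes and 20.2% of marked genes. Hscb and the checkpoint kinase gene Chek2 start 7 bp apart, Iscu and the splicing factor gene Sart3 18 bp, and Isca2 and the cholesterol transporter gene Npc2 118 bp. The starts of Nfs1 and Romo1, a gene for a mitochondrial inner membrane protein, lie 49 bp apart with the genes overlapping. Each of these neighbours, and Snhg10 and Etohd2 below, had the same highest peak as the member in both replicates, so the value cannot be assigned to either gene. Isca1 faces the long noncoding RNA gene Etohd2 at 177 bp and Glrx5 faces Snhg10, another noncoding gene, at 339 bp. Genes with a protein-coding partner were marked in 90.4% of cases and genes without one in 43.4%, so the count of 6 of 6 stands beside both shares. Marked genes with a partner had a median value of 13.9 and a median width of 2602 bp. Among the members with a partner, Nfs1 lay below this width, at 2367 bp. Hscb (2682 bp), Isca2 (2785 bp) and Iscu (3624 bp) lay above it.

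At Hscb, Iscu and Isca2, which face a protein-coding gene and have peaks on both sides, the sides were closer in value than at Glrx5 and Isca1, where the downstream side was higher. Peaks were assigned by the summit, the position of highest signal in a peak. At Glrx5 the highest downstream peak had 13.3 and 17.1, and the highest upstream peak 5.17 and 6.43, a ratio of 2.57 in replicate 1 and 2.66 in replicate 2. At Isca1 the values were 18.5 and 12.8 downstream and 7.19 and 7.89 upstream, a ratio of 2.58 and 1.62. The downstream side was thus higher in both replicates of both genes.

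Hscb had 12.6 and 12.5 on its own side and 11.3 and 11.4 on the side of Chek2. Its own side was thus also higher in both replicates, by a smaller ratio of 1.11 and 1.09. In the pooled set the side of Chek2 was the higher one, at 11.3 against 10.9. Iscu had 7.79 and 10.1 on its own side and 9.01 and 12.7 on the side of Sart3, so its own side was the lower one in both replicates. Isca2 had 13.1 and 13.4 on its own side and 15.3 and 12.03 on that of Npc2, and the higher side changed with the replicate. The single peak of Nfs1 had its summit at -557 bp, upstream, in replicate 1 and at 349 bp, downstream, in replicate 2.

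On the log2 scale the ratio of downstream to upstream was 1.39 ± 0.0348 at Glrx5, 1.03 ± 0.473 at Isca1, 0.14 ± 0.0186 at Hscb, -0.04 ± 0.273 at Isca2 and -0.26 ± 0.0770 at Iscu. Over 1101 marked genes with a protein-coding partner and peaks on both sides the median was 0.02 (SD 0.58), and over 3746 without a partner it was 0.50 (SD 0.69). The summit lay downstream in both replicates at Hscb, Glrx5 and Isca1, upstream in both at Iscu, and on different sides at Nfs1 and Isca2. Among all marked genes the shares were 60.2%, 17.6% and 22.3%, and among those with a partner 37.0%, 32.3% and 30.7%.

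**Figure D3:**
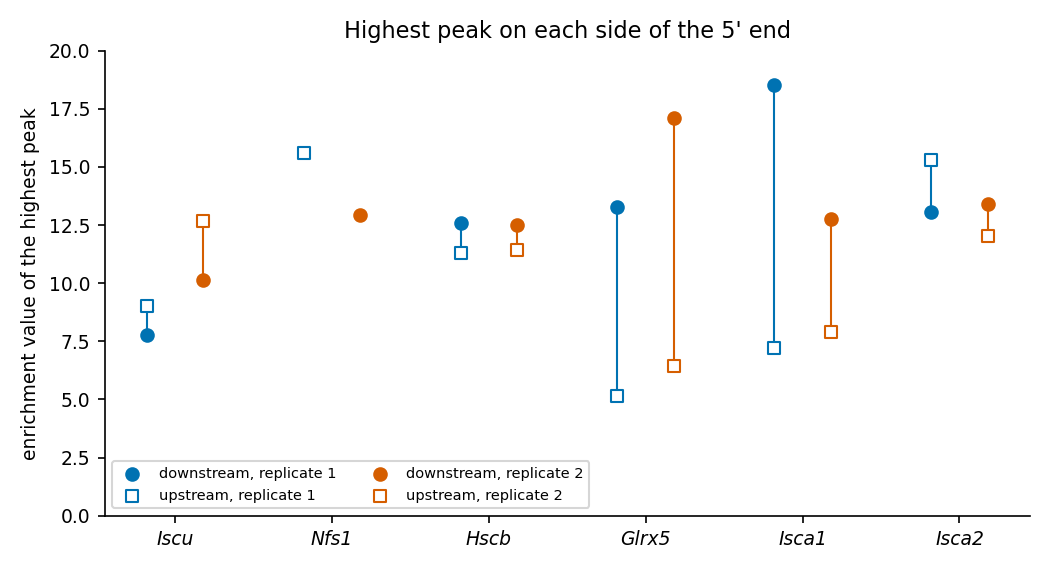
Enrichment value of the highest peak with its summit downstream (filled circles) and upstream (open squares) of each gene's 5′ end, by replicate. Lines join the sides within a replicate. The downstream peak is far above the upstream one at Glrx5 and Isca1 in both replicates, and below it in both at Iscu. Nfs1 has a single peak, so each replicate has a single symbol.

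Further peaks inside the gene, outside the 1000 bp at the 5′ end, were found in both replicates at Iscu, Hscb, Glrx5 and Isca1, against 32.1% of marked genes. The highest such values were 5.32 and 5.74 at Iscu, 7.78 and 6.88 at Hscb, 4.57 and 3.49 at Glrx5 and 2.96 and 3.70 at Isca1. All were below the value at the 5′ end of the same gene. Those of Iscu and Isca1 belonged to the domain at the 5′ end, while those of Hscb and the ones near the far end of Glrx5 stood apart from it. Exons and introns of mm10 were not analysed here.

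An older peak set of the series, on the build mm9, was read against the GENCODE M1 genes of that build. The libraries from which this older set was called are not stated. It held a single peak at the 5′ end of each of the 6 genes, and these peaks spanned the start without the interruptions of the replicate sets. They measured 5290 bp at Glrx5, 4956 bp at Isca1, 3503 bp at Iscu, 3386 bp at Hscb, 2527 bp at Isca2 and 2423 bp at Nfs1. Their values, on another scale, ran from 1.94 at Isca1, above 15.7% of the peaks in that set, to 4.39 at Isca2, above 85.8%. Isca1 thus had the highest mean of the 6 genes in the replicate sets and the lowest value in the older set, and Glrx5 and Isca1 had the widest domains in both.

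Other genes of the pathway and of its client proteins, together called pathway genes here, were taken from lists by role. All 44 were marked in both replicates, beside the 48.4% of all genes. Their values were ordinary for marked genes, with 20 of 44 above the median value and 23 of 44 above the median width. Of the 44, 14 had a protein-coding partner, against 20.2% of marked genes.

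The 7 partners of the core machinery had a median value of 12.5. Lyrm4, which steadies the desulfurase Nfs1, was highest at 20.5 ± 3.08 and also had the widest domain, 3365 ± 376 bp. The 5′ end of Fars2 lies on the other strand within 1000 bp of that of Lyrm4. Fdx2, the ferredoxin that gives electrons to the new cluster, was lowest at 6.66 ± 1.77. Hspa9, the chaperone that works with Hscb, had 18.9 and 14.4.

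The 7 late mitochondrial factors had a median of 14.4. Nfu1, a late carrier that serves lipoate synthase, was highest at 20.9 ± 3.32, and Bola1 was lowest at 9.72 ± 0.470. Iba57, which acts with Isca1 and Isca2, had a value of 10.4 ± 0.579 and the widest domain of the list, 5062 ± 279 bp.

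The 11 genes of the cytosolic machinery had a median of 12.3. Of these, 6 have a protein-coding 5′ end on the other strand within 1000 bp, against 20.2% of marked genes. Glrx3, a cytosolic glutaredoxin, had the highest mean, 15.6 ± 5.30, from 11.9 in replicate 1 and 19.4 in replicate 2. In replicate 1 alone, several genes of the list were higher than Glrx3, with Ciao2b highest at 13.9. Nubp2, part of the cytosolic scaffold, was lowest at 6.30 ± 2.33. Ciao2a had the widest domain, 4833 ± 48.8 bp.

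The 19 genes listed as clients, mostly for proteins that carry clusters, had a median of 13.3, close to that of all marked genes. Ercc2, a DNA helicase, was highest at 18.1 ± 0.0465, and Ndufs8, a complex I subunit, was lowest at 9.50 ± 0.281. Cisd1 had the widest domain, 5886 ± 305 bp. Aco1, the iron sensor, had 10.02 and 17.4, and Fech had 9.84 and 11.8 with a domain of 4790 ± 189 bp that was wider than that of 94.9% of marked genes. The 6 assembly genes fell inside the range of the 4 lists pooled in value and width. By mean width, with gaps of up to 1000 bp joined, Iscu, Glrx5 and Isca1 had wider domains than any of the 7 core partners. In replicate 2 alone, Lyrm4 was wider than Iscu, at 3631 against 3588 bp. Widths of the core partners with no gap joined were not analysed here.

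**Figure D4:**
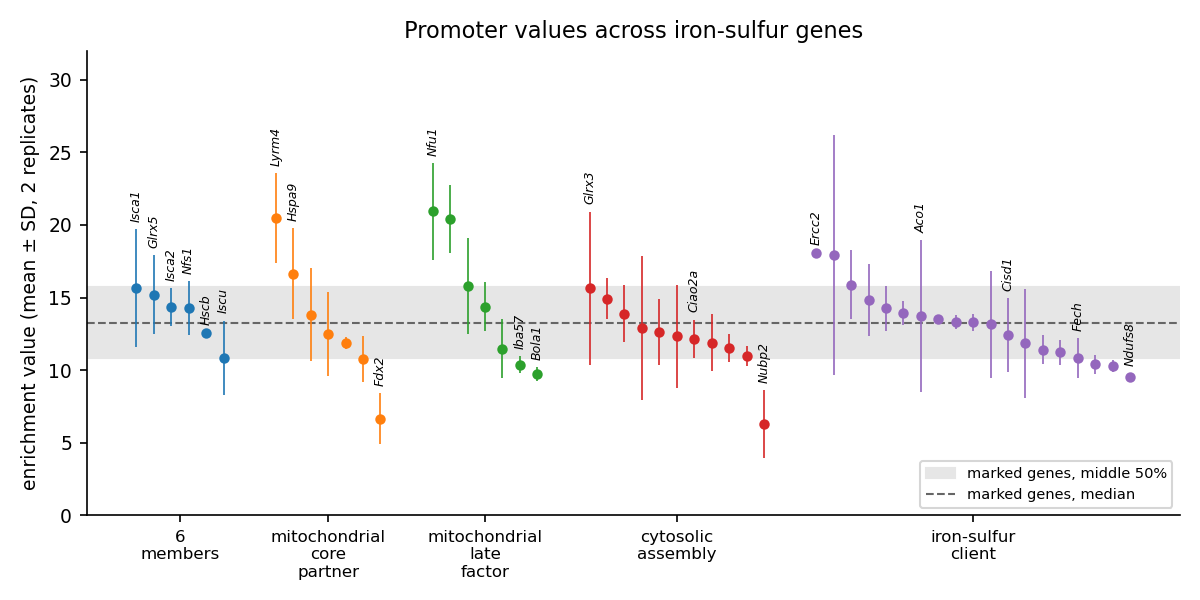
Enrichment value at the 5′ end (mean ± SD of 2 replicates) of the 6 genes and of 44 further genes of the iron-sulfur pathway, by list, with names at the genes described in the text. The grey band and dashed line are the middle 50% and the median of 9968 marked genes. The lists overlap, with Fdx2 and Nubp2 lowest and Nfu1 and Lyrm4 highest.

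The gene most like each of the 6 was found among all 9968 marked genes by Euclidean distance over log2 value and log2 width in both replicates, each in units of its SD, leaving out genes that share a peak with it. These were Yod1 for Iscu (distance 0.142), G6pc3 for Nfs1 (0.101), Sgpl1 for Hscb (0.0984), Hnrnpa0 for Glrx5 (0.139), Ggps1 for Isca1 (0.159) and Vezt for Isca2 (0.0865). With 2 samples of 1 group, this likeness is one of level and width only.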

How the data were processed

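Peaks of H3K4me3 were deposited by the authors for each replicate, for the pooled alignments and as a replicated set on mm10, and as an older set on mm9, per the file notes deposited with them. By these notes the pooled set drew on the alignments of both replicates and on further files. Fragments were 150 to 350 bp, per the labels. Column 7 of these files is a deposited score per peak of unstated scale, and the p-value and q-value are deposited as −log10. Aligner, peak caller and threshold are not given in the sources used here. All values of single peaks are the authors' own.

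Gene positions came from a RefSeq table of GRCm38.p6, with strand from GENCODE M1 by symbol for 18392 genes and by synonym for 2184. The other 1311 of 21887 protein-coding genes had no strand and were left out. Of 16533 genes with a RefSeq promoter entry, 99.7% had the same strand there. Each gene has 1 start, so promoters inside a gene can be missed. The analysis used Python 3.11.15 with pandas 2.3.3, and the marking of genes was tested on simulated data.

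No p-value was computed, since a single group of 2 replicates allows no comparison of conditions. The labels call the 2 replicates biological but cite a single biosample record for both and do not say whether the cultures were separate, so each SD measures the spread between these 2 libraries. The 6 genes, the pathway lists and the marker lists were chosen with earlier results of these data known. Named are the 6 genes and their neighbours, the highest, lowest and widest gene of each pathway list, and the nearest gene in value and width. Hspa9, Ciao2b, Aco1 and Fech were added after their values were seen. Some listed genes are counted but not reported by name here. Alternatives varied the window, the peaks, the joined gap, the peak set and the gene starts.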

Additional observations from a re-analysis of the deposited data

How the results depend on the processing

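All 6 genes stayed marked under 12 of the 14 other settings, and all 44 pathway genes under 12, with all 43 that GENCODE M1 names in the older set. When a peak had to cover the base at the 5′ end, 3 of the 6 genes (without Hscb, Glrx5 and Isca1) and 21 of the 44 stayed marked, against 20.5% of all genes. When at least 50% of the peak had to lie in the window, Glrx5 was lost, which left 5. The share of all genes ran from 44.3% to 59.6% over the rest. The median value of the 6 genes, 14.3, was 12.02 as a width-weighted mean over the peaks and 13.1 in the pooled set, and 12.9 and 14.3 without replicate 1 and without replicate 2. The median width, 3204 bp, was 1553 bp with no gap joined, 4050 bp with gaps of up to 3000 bp and 3462 bp in the pooled set, and 3166 and 3242 bp without replicate 1 and without replicate 2. With gaps of up to 3000 bp the domain of Glrx5 grew to 9705 bp and that of Hscb to 5553 bp. With no gap joined, Nfs1 had the widest mean domain of the 6, at 2367 bp. With a minimum −log10 q of 2 or 5 per peak, the mean width of Isca1 was 4339 or 4073 bp, and that of Glrx5 stayed at 4627 bp. The overlap of these 2 genes in width rests on the outermost downstream peak of Isca1 in replicate 1, which had a −log10 q of 0.867. Depth is unknown, so it cannot be said how weak a peak could have been seen.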
